A study of Drosophila melanogaster with 2 samples.

Results

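Intronic binding sites far from any transcript start were examined in a ChIP-seq experiment on Gug (Grunge), the single Atrophin protein of Drosophila melanogaster. Of 5750 peak summits called from both replicates together on arms X, 2L, 2R, 3L, 3R and 4, 950 (16.5%, exact binomial 95% interval 15.6 to 17.5) met the rule. The summit lay inside an annotated gene, overlapped no exon, and was more than 5000 bp from the nearest transcript start of any gene, transposable elements left out. Such summits are called far intronic here, and the rule used position only, not signal. The chromatin came from whole prepupae with an age of 1 day, of the strain Gug-GFP, which carries an insertion that expresses Gug fused to eGFP, and it was sheared by sonication. The fusion protein was precipitated with an antibody against GFP, in 2 biological replicates. All samples belonged to this one group, sex was not collected, and the possible control experiment that the labels point to was not used here, so no comparison between conditions was made. Because whole animals were used, a site bound in fewer cells and a site with less signal per cell cannot be told apart.

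Atrophins are nuclear corepressors that are brought to chromatin by DNA-binding partners, among them the nuclear receptor Tailless, and that recruit histone deacetylases. In flies Gug acts in segmentation, in planar polarity with the cadherin Fat, and in patterning of the legs, wings and eyes. The prepupa is the stage at which the steroid ecdysone drives the larva into metamorphosis, and long introns of developmental genes are known to hold many of the enhancers used at such stages.

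The 200 bp centred on 9 of these summits show the kind of sequence at issue. They belong to the 8 strongest far intronic summits on the arms from which sequence is printed and to the strongest in Snoo. Snoo is the gene with the most far intronic summits. Its strongest was also the strongest of those more than 30 kb from a transcript start. Each window is the plus strand of the RefSeq genome of dm6, written 5′ to 3′, with the summit at base 101. Capitals mark each match to CACTG, or to its reverse complement CAGTG, a word that was common beside these summits and was picked out after its counts had been seen.
JIL-1 (chr3L:11084680-11084879): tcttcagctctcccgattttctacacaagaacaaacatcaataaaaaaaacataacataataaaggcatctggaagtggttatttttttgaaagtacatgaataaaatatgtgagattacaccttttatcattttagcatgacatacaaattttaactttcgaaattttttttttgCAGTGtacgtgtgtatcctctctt
Gug (chr3L:8458216-8458415): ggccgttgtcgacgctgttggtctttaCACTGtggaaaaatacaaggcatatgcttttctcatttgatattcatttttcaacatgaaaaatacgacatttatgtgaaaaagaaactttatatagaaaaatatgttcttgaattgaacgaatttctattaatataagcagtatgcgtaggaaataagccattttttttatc
dpp (chr2L:2433531-2433730): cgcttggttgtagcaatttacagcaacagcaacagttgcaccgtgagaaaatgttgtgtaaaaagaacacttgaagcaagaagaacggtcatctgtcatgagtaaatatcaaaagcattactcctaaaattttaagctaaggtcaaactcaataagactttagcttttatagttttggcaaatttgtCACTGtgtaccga
Eip75B (chr3L:18009081-18009280): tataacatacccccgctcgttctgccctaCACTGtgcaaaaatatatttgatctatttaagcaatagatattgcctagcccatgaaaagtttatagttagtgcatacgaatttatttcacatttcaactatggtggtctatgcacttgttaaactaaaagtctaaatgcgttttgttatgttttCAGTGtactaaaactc
Snoo (chr2L:7925478-7925677): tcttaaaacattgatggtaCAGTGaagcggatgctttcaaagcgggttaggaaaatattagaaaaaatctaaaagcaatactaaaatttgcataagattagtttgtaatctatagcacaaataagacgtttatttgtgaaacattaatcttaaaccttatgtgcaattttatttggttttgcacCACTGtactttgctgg
CG32486 (chr3L:3060706-3060905): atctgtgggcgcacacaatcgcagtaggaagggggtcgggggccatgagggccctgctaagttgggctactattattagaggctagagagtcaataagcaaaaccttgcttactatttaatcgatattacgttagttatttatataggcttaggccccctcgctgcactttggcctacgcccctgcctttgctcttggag
Raf (chrX:2300597-2300796): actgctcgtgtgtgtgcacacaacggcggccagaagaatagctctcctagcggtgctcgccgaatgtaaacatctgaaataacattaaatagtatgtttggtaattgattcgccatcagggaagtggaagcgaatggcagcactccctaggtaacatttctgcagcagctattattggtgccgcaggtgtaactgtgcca
Myc (chrX:3381799-3381998): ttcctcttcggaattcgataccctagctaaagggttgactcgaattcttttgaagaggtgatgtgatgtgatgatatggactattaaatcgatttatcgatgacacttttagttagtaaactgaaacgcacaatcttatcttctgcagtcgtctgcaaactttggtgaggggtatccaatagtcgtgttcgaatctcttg
Hr4 (chrX:1947653-1947852): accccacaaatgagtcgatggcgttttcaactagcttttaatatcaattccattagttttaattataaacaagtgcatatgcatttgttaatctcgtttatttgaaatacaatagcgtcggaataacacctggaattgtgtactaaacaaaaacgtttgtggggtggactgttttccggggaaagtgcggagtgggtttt
The word was present in 5 of the 9 windows. Its centre was 78 bp to the right of the summit in JIL-1, 71 bp to the left in Gug and 89 bp to the right in dpp. In Eip75B the centres were 69 bp to the left and 86 bp to the right, and in Snoo 79 bp to the left and 86 bp to the right. The windows in CG32486, Raf, Myc and Hr4, which include the 2 strongest far intronic summits, held no match. The GC content of the 9 windows ran from 29% in JIL-1 to 49.5% in CG32486.

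Far intronic sequence was not where summits were densest. It made up 28.3 Mb, or 21.1%, of the 133.6 Mb of the arms, and its 950 summits came to 33.6 per Mb (exact Poisson 95% interval 31.5 to 35.8), 0.781 times the 43.0 per Mb of the arms as a whole (interval 0.733 to 0.833). Intronic sequence over 500 and up to 5000 bp from a transcript start (near introns) held 1676 summits at 68.3 per Mb (65.1 to 71.6), and sequence within 500 bp of a start held 2060 at 114 per Mb (109 to 119). Intergenic sequence outside promoters was the sparser neighbour, with 918 summits at 25.3 per Mb (23.7 to 27.0), so far intronic sequence lay between it and the near introns and its interval met neither. The remaining 146 summits were exonic. The share that was far intronic was 15.4% of the 3826 summits in the list of replicate 1 alone and 16.6% of the 3999 in that of replicate 2.

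Within introns the density of summits fell with distance from a transcript start, with 1 small step up between 3500 and 5000 bp. It was 98.4 per Mb at 500 to 1000 bp, 75.1 to 2000 bp, 52.5 to 3500 bp and 57.2 to 5000 bp. Beyond the limit of the rule it was 48.3 per Mb to 7500 bp (316 summits), 44.0 to 10000 bp (199), 40.7 to 15000 bp (225), 33.6 to 20000 bp (102) and 31.4 to 30000 bp (87). The decline was gradual up to that point, with the intervals of neighbouring bins overlapping from 5000 bp onwards. More than 30000 bp from any start it was 3.57 per Mb (2.21 to 5.46): 21 summits in 5.88 Mb, against 7 in the list of replicate 1 alone and 14 in that of replicate 2. With those stretches left out of far intronic sequence, but kept in the arms, the rest held 0.964 times the density of the arms as a whole.

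**Figure D1:**
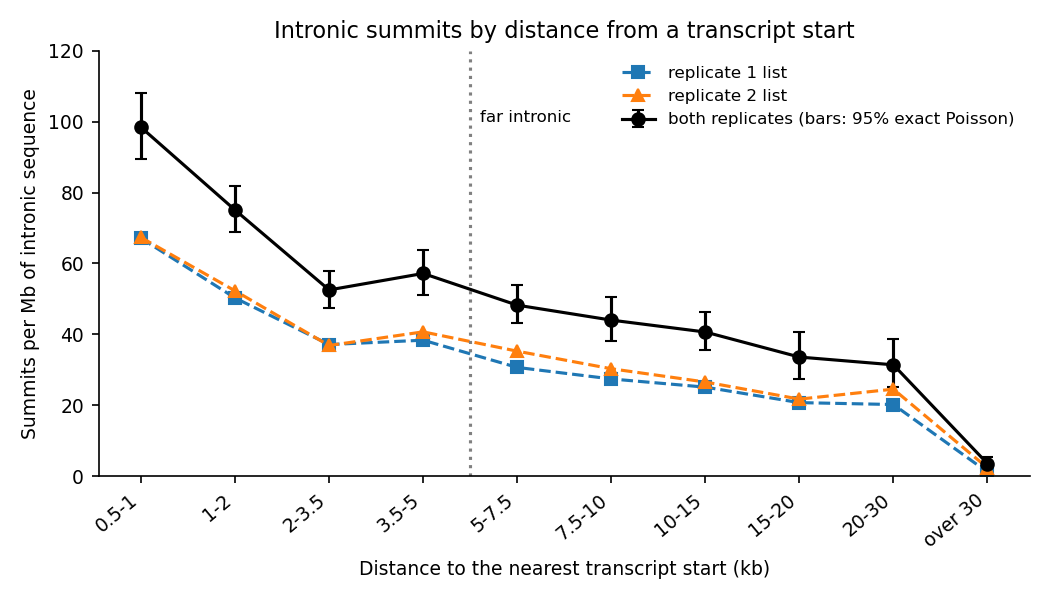
Intronic summits per Mb (vertical axis) in bins of distance from the nearest transcript start (horizontal axis) for the list called from both replicates, with exact Poisson 95% intervals, and for the lists of replicate 1 and replicate 2. All 3 are lower beyond 30000 bp than in any nearer bin; they step up at 3500 to 5000 bp and replicate 2 again at 20000 to 30000 bp, and for both replicates together the density runs from 98.4 per Mb at 500 to 1000 bp to 3.57 per Mb beyond 30000 bp.

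The most remote stretches differed from the others in sequence and in how they were covered. The soft-masked (repetitive) share of the sequence rose from 21.9% at 5000 to 7500 bp to 35.1% beyond 30000 bp, and ranked peaks that missed the threshold fell from 464 to 141 per Mb between the same bins. The part of repeats and of uneven read coverage in the low density there was not tested. The sequence was also concentrated in few genes: the 13 coding genes with the most intronic sequence over 30 kb from a start held 4.09 Mb of it. These 13 held no summit of any class anywhere in the gene, among them Myo81F, which had 1905 kb of far intronic sequence. Added up gene by gene, coding genes without a summit of any class held 4.88 Mb of the sequence over 30 kb from a start. The part of such genes in the low density was not tested. The 21 summits that were this remote lay instead in genes such as Snoo, the transcription factor gene mamo, the cadherin gene ds, the cell adhesion gene Fas2 and hth. The strongest, in Snoo at 2L 7925578, was 34874 bp from the nearest start and had a signal of 509 with both replicates together, 216 in replicate 1 and 297 in replicate 2.

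By arm, far intronic density was 40.5 per Mb on X (35.2 to 46.2; 217 summits), 39.4 on 2L (33.6 to 45.9; 163), 33.9 on 3L (29.2 to 39.2; 183), 30.4 on 3R (26.8 to 34.4; 251) and 27.9 on 2R (23.4 to 33.0; 136). The intervals of neighbours in this order overlapped, while those of X and 2L did not overlap that of 2R, nor that of X that of 3R. Arm 4 held no such summit in 0.259 Mb, which allows up to 14.2 per Mb, and it held only 1 summit of any class. As a share of all summits on the arm, the order was another: 19.4% on 3R, 18.7% on X, 16.3% on 2L, 13.9% on 3L and 13.8% on 2R.

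The median distance from a far intronic summit to the nearest transcript start was 9474 bp (5005 to 53955), and to the nearest start of the host gene itself 12825 bp. For 514 (54.1%, 50.9 to 57.3) the nearest start of all belonged to the host, so for the others a start of another gene was closer. The median length of the intron was 19089 bp, and 463 summits (48.7%, 45.5 to 52.0) lay in a first intron of at least one transcript of the host, against 29.7% of far intronic sequence. Repeats were about as common at the summits as in far intronic sequence as a whole. Of the summits, 24.8% fell on a soft-masked base, against 25.8% of far intronic sequence, and 4 lay in an annotated transposable element. The 25.8% includes the sequence more than 30000 bp from a start, where the share was 35.1% and few summits lay. It was 21.9% at 5000 to 7500 bp. At the edge of the rule, the 3 summits just inside it were 5005, 5008 and 5013 bp from a start, with signals of 61.0, 86.6 and 265, and the 3 just outside 4999, 4986 and 4981 bp, with signals of 238, 96.3 and 132.

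The deposited signal, the height that the authors' peak list gives each peak, had a median of 106 at far intronic summits (quartiles 80.5 and 165; range 2.37 to 1334). The medians were 114 in near introns, 119 at promoters and 105 in intergenic sequence. The distributions overlapped almost throughout, and what differed was the upper end. When all 5750 summits were ranked by signal and cut into 5 groups of 1150, far intronic summits made up 12.6% (10.7 to 14.7) of the strongest group, and 16.9%, 17.7%, 18.7% and 16.7% of the next 4. They were 5 of the strongest 100 summits and 119 of the strongest 1000. Intergenic summits, a class of similar size, were close to this, with 4 and 104. Near introns had 20 and 287, and promoters 66 and 466.

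Recovery in the separate replicates was tallied by a summit in that replicate's thresholded list within 100 bp. Of the 950, 452 (47.6%, 44.4 to 50.8) were in both lists, 94 in that of replicate 1 only, 176 in that of replicate 2 only and 228 (24.0%, 21.3 to 26.8) in neither. The share in both was 51.6% in near introns, 53.5% at promoters and 44.6% in intergenic sequence. In the longer ranked lists, which also hold peaks below the threshold, 868 far intronic summits had a signal in replicate 1, with a median of 51.0 (6.10 to 622), and 890 in replicate 2, with a median of 63.4 (12.6 to 721). Over the 852 with a signal in both, the Spearman correlation between the replicates was 0.746, against 0.801 over the 4223 other summits; the points share 2 libraries, and the value is a description. Replicate 2 was the higher in 668 of the 852, with a median ratio to replicate 1 of 1.27. The signal from both replicates together was close to the sum of those of the replicates, at a median of 0.999 times it.

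**Figure D2:**
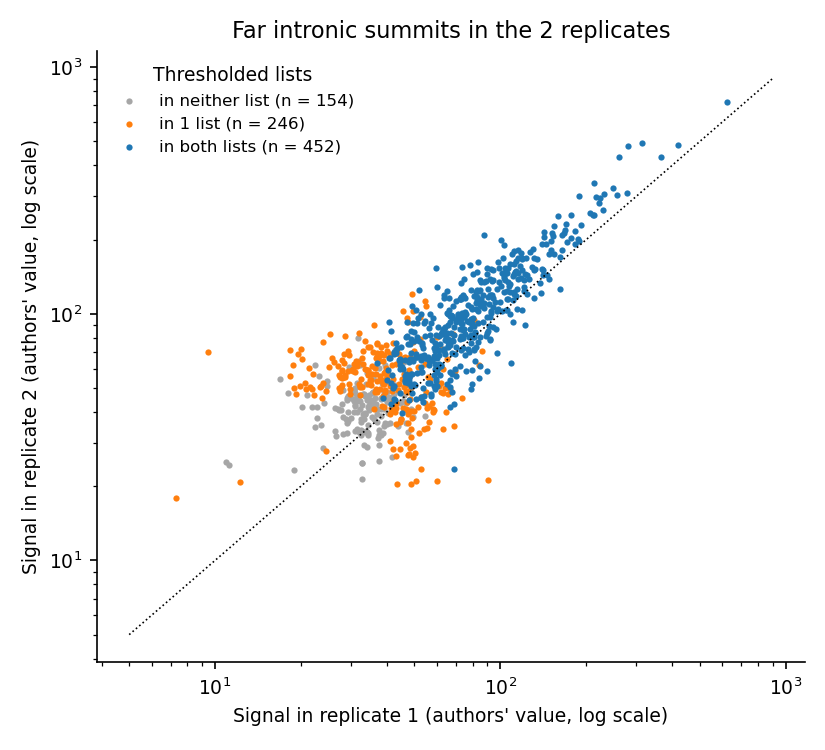
Signal of each far intronic summit in replicate 1 (horizontal axis) and replicate 2 (vertical axis), both on log scales, for the 852 with a ranked peak in each, coloured by the thresholded lists that held the summit. Most points, 668 of 852, lie above equality, and the summits in both lists sit at the upper end.

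A small group of summits was very weak, most of them close to another summit. Of the 950, 57 had a signal under 30, with the next lowest of the others at 31.0. Of the 57, 53 were within 250 bp of another far intronic summit, the median gap of the 57 being 203 bp, and 3 were in a replicate's thresholded list. Counts of neighbours are also given with each summit within 250 bp of a stronger one left out, which leaves 890 far intronic summits, 452 (50.8%) of them in both replicates' lists. This alternative was chosen after the data had been seen.

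Each of the 10 strongest far intronic summits was in both replicates' lists. The highest was in CG32486 at 3L 3060806, with a signal of 1334 together, 622 in replicate 1 and 721 in replicate 2. In Raf, the kinase that relays Ras signals to the MAP kinase cascade, X 2300697 had 900 together, 418 in replicate 1 and 485 in replicate 2. In JIL-1, a histone kinase of open chromatin, 3L 11084780 had 809, 313 and 495 in the same order. The tagged gene itself came next: 3L 8458316, in Gug, had 787 together, 365 in replicate 1 and 433 in replicate 2. Whether the insertion adds a copy of Gug sequence is not given in the labels, and its part in this signal was not tested. Psc, a subunit of a Polycomb repressive complex, followed with 759, 281 and 477 at 2R 12975579. In Myc, the growth-promoting transcription factor, X 3381899 had 689, 260 and 432. These 6 were 5079 to 8740 bp from the nearest transcript start, so none of the highest was at the extreme of distance. The next were in the nuclear receptor gene Hr4 (X 1947753, with 588, 277 and 310), in dpp, the BMP ligand (2L 2433631, with 576, 249 and 322), in the nuclear receptor gene Eip75B (3L 18009181, with 560, 256 and 304) and in E23, an ecdysone-induced ABC transporter (2L 3348325, with 555, 212 and 339). In all 10 the signal of replicate 2 was above that of replicate 1, the direction of the replicates as a whole.

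Far intronic summits were unevenly spread over genes. Of 1760 protein-coding genes with any far intronic sequence, 400 (22.7%) held at least 1 of these summits and 129 (7.33%) held 3 or more. A single summit was found in 188 of them, 2 in 83, and 5 or more in 45. The share of genes with a summit rose with the length of such sequence they hold, from 0.779% of genes with up to 1 kb to 57.6% of genes with 50 to 100 kb, and was 33.3% above 100 kb. In all, 934 summits lay in a coding gene, 26 of them in more than one. The other 16 were in noncoding genes alone, 8 of the 16 on X. Among these were 3 in let7C, the noncoding gene that carries the let-7 microRNA cluster, with signals of 96.1, 77.3 and 73.4, and the strongest, with 458, in lncRNA:CR32773.

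The 6 genes with the most held 92 of the 950 (9.68%). Snoo, which encodes a Ski/Sno family antagonist of TGF-beta signalling, came first with 22 in 75.3 kb of far intronic sequence, 292 per Mb. They were spread from 12.7 to 86.8 kb from its 5′ end, all in a first intron, with signals of 7.30 to 509 and a median of 117; 10 were in both replicates' lists, 4 in one and 8 in neither, and 17 are left without those within 250 bp of a stronger summit. After the remote summit printed above, its next strongest was at 2L 7900174, with 285 together, 132 in replicate 1 and 152 in replicate 2. All 22 summits in this gene were far intronic, so none lay near a start or in an exon.

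In heca (headcase), a regulator of adult progenitor cells, 16 summits came to 267 per Mb, 8 of them in both lists and 5 in neither. Its strongest, at 3R 30296166, had 527 together, 230 in replicate 1 and 308 in replicate 2. The gene sbb (scribbler, also brakeless) encodes a corepressor that works with Atrophin, and its 14 far intronic summits, 394 per Mb, were all in a first intron, of 25 summits in the gene. The strongest of them, at 2R 18335276, had 463 together, 211 in replicate 1 and 252 in replicate 2. The adhesion gene kirre, which acts in myoblast fusion, also held 14, but in 226 kb and so at 61.9 per Mb, with 10 in both lists and a highest signal of 310. Tet, a gene of the TET dioxygenase family, held 14 at 213 per Mb, with signals of 69.9 to 234, of which 4 were in both lists and 8 in one. The RhoGAP gene cv-c held 12 at 236 per Mb. Hr4 and the Hox cofactor gene hth held 9 each, at 292 and 89.4 per Mb, and SKIP, plum, Glut4EF and rdx, whose product directs Cullin-based turnover of the Hedgehog effector Ci, held 8 each. The 8 in Glut4EF also lie in the overlapping gene CG46467. Gug held 5 in 9.13 kb, 548 per Mb: besides the strong one, signals were 107 at 8459596 (60.0 in replicate 1, 50.8 in replicate 2), 73.1 at 8460475 (no peak in replicate 1, 51.4 in replicate 2), 61.7 at 8461868 (28.7 and 37.5) and 13.9 at 8459799, with no peak in either. With summits within 250 bp of a stronger one left out, heca kept 15, sbb 13, kirre 13, Tet 14, cv-c 12, Hr4 9, hth 8, rdx 6 and Gug 4.

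**Figure D3:**
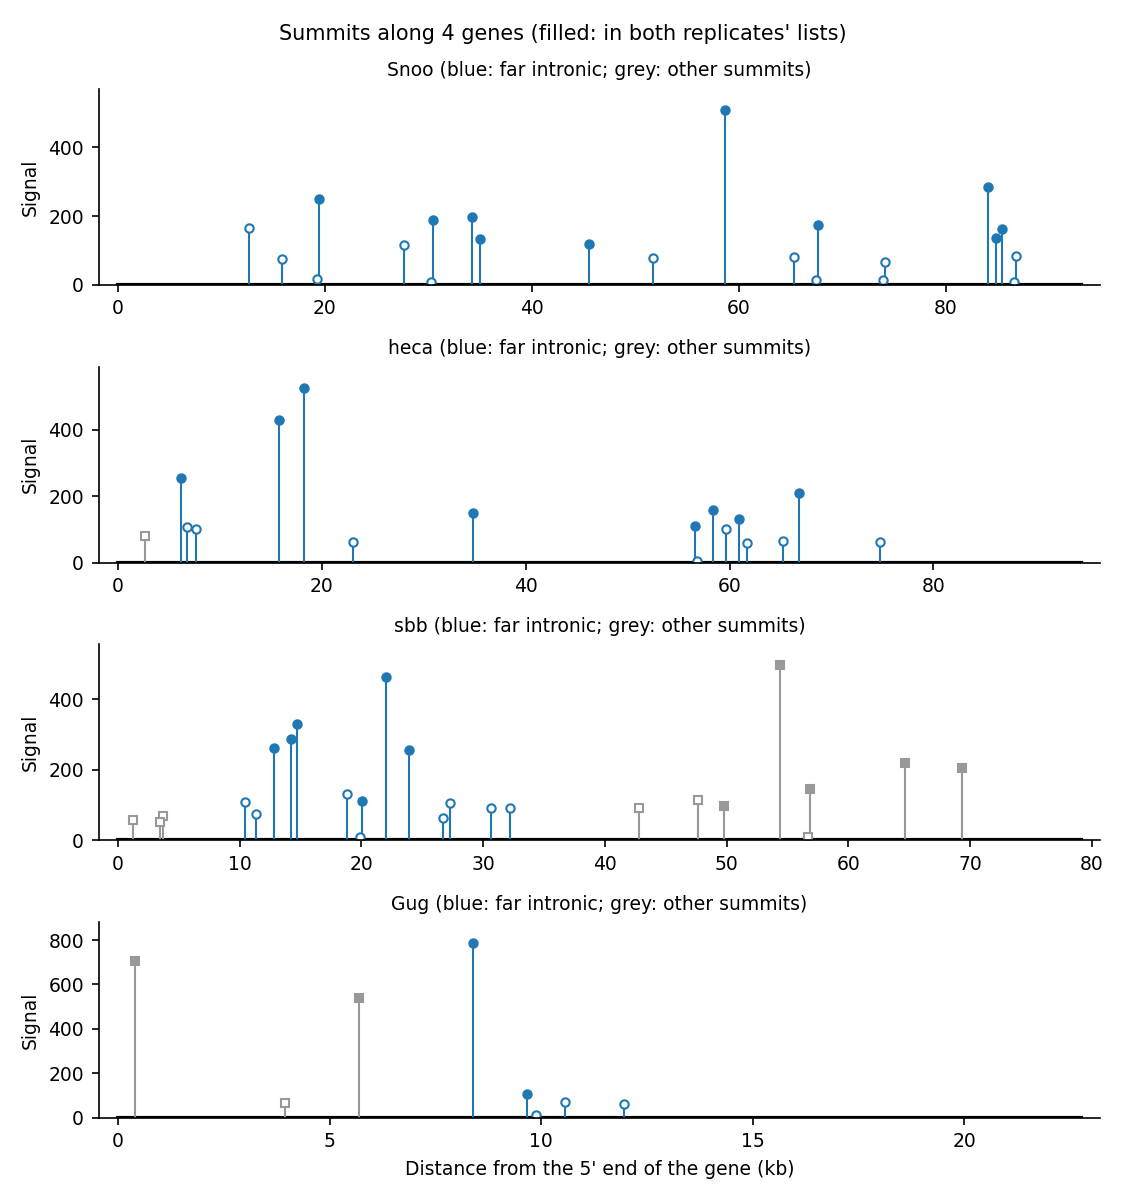
Signal of every summit (vertical axis) against its distance from the 5′ end of the gene in kb (horizontal axis) along Snoo, heca, sbb and Gug, with far intronic summits in blue, other summits in grey, and filled marks for those in both replicates' lists. Snoo shows 22 far intronic summits over 12.7 to 86.8 kb, and in Gug one of 787 stands above the other 4.

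The summits were often found in groups: 476 of the 950 (50.1%, 46.9 to 53.3) had another far intronic summit within 3000 bp. Without those within 250 bp of a stronger one the share was 43.4%. Joined at 3000 bp, the 950 formed 665 groups, with summits within 250 bp of a stronger one counted as members. Of these groups, 474 were single summits, 127 pairs, 44 groups of 3, 13 of 4 and 7 of 5 or more. The group with the most summits was one of 7 over 8.46 kb in sbb, followed by 6 over 5.15 kb in heca, 5 over 5.87 kb in Raf and 5 over 3.55 kb in Gug. In Raf the signals of the other 4 were 138 to 152, well under the 900 of the first.

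Gene lists drawn up from textbook roles were described by how many of their genes with far intronic sequence held a summit, beside 22.7% for all such coding genes, and by density, beside 33.6 per Mb for all far intronic sequence. The lists share genes, were chosen with earlier results of these data known, and got no test. The 22.7% was not matched for length. It was 34.6% for coding genes with 10 to 20 kb of far intronic sequence and 43.8% with 20 to 50 kb. Among lists with a median length of 20 to 50 kb, 78.9% of ecdysone genes held a summit. The share was 42.1% for BTB and zinc finger genes, 31.4% for cell adhesion genes and 11.8% for ion channel genes. The part of length in these shares was not tested. Corepressors and known partners of Gug came first in density: 6 of 9 genes held a summit, at 287 per Mb (212 to 380), through Gug, Snoo, sbb, the repressor gene cic with 4, the corepressor gene Smr with 2 and the deacetylase gene HDAC4 with 2. The density was 272 without Gug and 158 (68.2 to 311) without Gug, Snoo and sbb. CtBP, Sin3A and tou, with 0.358, 2.22 and 2.65 kb of such sequence, held none.

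Genes of the ecdysone response and metamorphosis held a summit in 15 of 19 cases, at 115 per Mb (85.2 to 151). The nuclear receptor genes carried 9 in Hr4, 7 in ftz-f1, 3 in Eip75B, 3 in Hr3, 2 in Hr38, 2 in EcR, the ecdysone receptor itself, and 1 in Eip78C. The highest signal in EcR was 78.6, below the median of 106. The coactivator gene tai held 7, the ETS factor gene Eip74EF 4, the transporter gene E23 4 and the late prepupal regulator Eip93F 2. No far intronic summit was called in br, the BTB zinc finger gene of the pupal switch, in 44.0 kb of such sequence, nor in Hr39, crol or chinmo.

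In the Dpp and TGF-beta list 11 of 14 genes held a summit, at 155 per Mb (111 to 211), with 22 of the 40 summits in Snoo. Besides dpp itself, shn, a zinc finger effector of the pathway, had 520 together at its only summit (2R 11188796), 224 in replicate 1 and 296 in replicate 2. The glypican genes dlp and dally, which shape ligand gradients, held 4 and 3, the antagonist gene sog 3, the inhibitory Smad gene Dad 2, and the type I receptor genes tkv and babo 1 each. In the EGFR and Ras list it was 7 of 13 genes at 81.9 per Mb (48.6 to 130), led by Raf. The ligand gene vn had a summit of 420 together, 192 in replicate 1 and 229 in replicate 2, and pnt, the ETS activator of the pathway, one of 320, 148 and 176. In the Notch list it was 6 of 12 at 90.3 per Mb (50.5 to 149), counting cv-2, a BMP-binding protein that the list also held. The ligand gene Dl was among the unmatched list names and was not assessed. The receptor gene N had its higher summit at 334 together, 151 in replicate 1 and 182 in replicate 2, while kuz, the metalloprotease that cleaves Notch, reached 186 and the ligand gene Ser 154.

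In the Wingless list 8 of 11 genes held a summit, at 71.9 per Mb (43.3 to 112). The co-receptor gene arr had 250 together, 124 in replicate 1 and 121 in replicate 2, the receptor gene fz had 244, 89.7 and 154, and the ligand gene wg, with 1.99 kb of such sequence, had 220, 119 and 104. In arr and wg replicate 1 was the higher, against the direction of most summits. The Fat, Hippo and planar polarity list had 5 of 14 genes at 57.4 per Mb (32.8 to 93.1), with kibra, which acts upstream in Hippo signalling, at 470 together, 213 in replicate 1 and 252 in replicate 2, and the kinase gene wts at 157. The cadherin gene ds held 3. The Polycomb and Trithorax list had 4 of 10 genes at 136 per Mb (44.2 to 318) from 5 summits, in Psc, trx (496 together, 189 in replicate 1 and 301 in replicate 2), osa and Mi-2, where the summit of 379 also lies in Su(Tpl).

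Lists of patterning and structural genes had densities nearer that of all far intronic sequence. The Hox list had 3 of 11 genes at 55.2 per Mb (31.5 to 89.6): hth with 9 and a highest signal of 173, Antp with 6 and 137, and Ubx with 1 of 97.2 that was in neither replicate's list. The 6 in Antp also lie in the overlapping gene CG46458. For limb, eye and epidermal patterning genes it was 5 of 25 at 39.5 per Mb (19.7 to 70.6), with bab1 at 194 and inv at 157, and Lim1 at 93.3 in the list of replicate 1 only. BTB and zinc finger genes had 8 of 19 at 38.3 per Mb (23.4 to 59.2), among them fru, the sex determination effector, with 226. Muscle genes had 3 of 19 at 38.1 per Mb (15.3 to 78.5): twi, the mesodermal bHLH gene, with 293 in a stretch shared with CG42741, the Z-disc gene Zasp52 with 291 and the RNA-binding protein gene how with 156. Cell adhesion and axon guidance genes, which hold 1.42 Mb of far intronic sequence, had 11 of 35 at 25.3 per Mb (17.8 to 35.1), and 14 of their 36 summits were in kirre. Ten-a reached 282 and Ptp10D 251.

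Ion channel and synaptic genes stood at the other end: 4 of 34 genes held 5 summits in 1.01 Mb, 4.94 per Mb (1.60 to 11.5). The highest signals were near or below the far intronic median of 106, at 105 in nAChRalpha6 (in the list of replicate 1 only), 104 in Ca-alpha1T and 83.0 in rut, an adenylyl cyclase gene of memory, whose summit was in neither list. These genes had a median of 22.7 kb of far intronic sequence each, against 26.2 kb in the ecdysone list. None of 47 cytoplasmic ribosomal protein genes had any far intronic sequence, and so none could hold a summit.

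**Figure D4:**
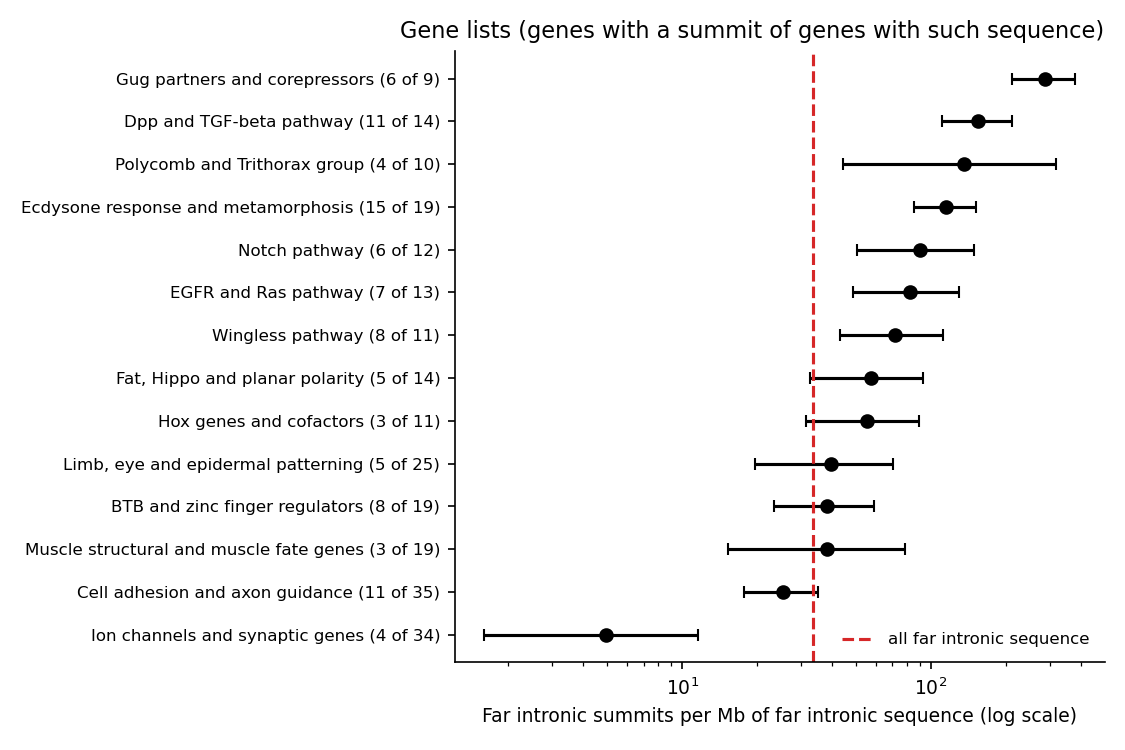
Far intronic summits per Mb of far intronic sequence (horizontal axis, log scale) for each gene list with exact Poisson 95% intervals, with the genes holding a summit of those with such sequence beside the name. The lists run from 287 per Mb for Gug partners and corepressors to 4.94 per Mb for ion channels and synaptic genes, around 33.6 per Mb for all far intronic sequence.

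The DNA at these summits had a recurrent layout. GC content averaged 34.0% within 50 bp of the summit, 45.2% at 150 to 300 bp on either side and 40.4% at 900 to 1000 bp. The median of the 200 bp windows was 35% at the summits and 40.5% both in windows 1000 bp away and in 200 bp tiles of all far intronic sequence. The dip was shared: near intronic, promoter and intergenic summits also had a median of 35%.

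Of 682 words of 7 letters that occurred in at least 50 windows, counted on both strands, CACTGAG had the highest ratio, at 10.8% of summit windows against 1.45% of the windows 1000 bp away. CAGTGTA was in 10.1% against 1.56%, and TGCACTG in 16.6% against 3.67%. All 3 contain CACTG or its reverse complement. That 5-letter word was in 54.6% (51.4 to 57.8) of the 950 windows of 200 bp, in 26.4% (24.3 to 28.5) of those 1000 bp away and in 27.1% of the tiles. At near intronic summits it was in 50.9%, at promoters in 44.1% and at intergenic summits in 55.3%, close to the far intronic value. The word was selected on these counts, which are therefore a description.

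The word was centred 50 to 100 bp from the summit at 39.9% (36.8 to 43.1) of far intronic summits. In a bin of the same width, 200 to 250 bp from the summit, the share was 21.2%. The word was centred 25 bp or less from the summit at 8.63%, in a narrower bin of 25 bp rather than 50 bp to each side. At 9.16% it was 50 to 100 bp away on both sides, as in Eip75B and Snoo above. It read CACTG towards the summit at 26.5% (23.7 to 29.5) and away from it at 16.6% (14.3 to 19.2), against 27.5% and 15.6% at intergenic summits, 21.8% and 17.5% in near introns, and 16.0% and 17.0% at promoters. At 50 to 100 bp it was at 51.2% of the stronger 475 summits and 28.6% of the weaker 475. Anywhere in the 200 bp it was in 69.5% of the strongest 190, and in 54.7%, 52.1%, 45.8% and 51.1% of the next groups of 190, so the contrast lay mostly in the strongest group and the weakest was not the lowest. The weakest group includes the 57 summits with a signal under 30, 53 of them within 250 bp of another, so its windows are not all separate sites. In the lists of replicate 1 and replicate 2 alone the share at 50 to 100 bp was 43.9% and 44.6%. The share anywhere in the 200 bp was 58.1% in each of those lists. Read 5′ to 3′ along the strand with CACTG, the second base before it was T in 51.1% of 667 matches near summits, against 32.04% of matches in flanking windows. A stood at base 10, 11 and 12, counted from the C that opens the word, in 55.3%, 55.3% and 55.9%, against 28.1%, 29.4% and 26.9%.

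**Figure D5:**
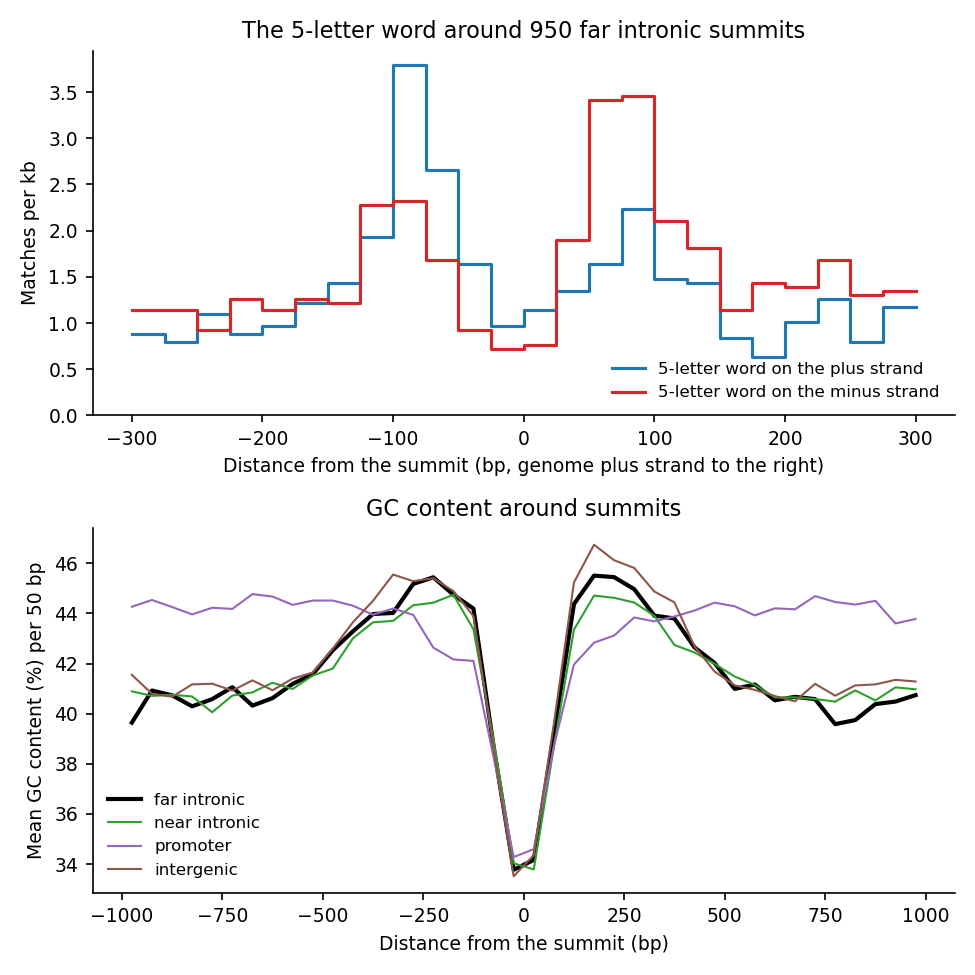
Upper panel: matches per kb to the 5-letter word on each strand (vertical axis) in 25 bp steps from the summit (horizontal axis); lower panel: mean GC content in percent per 50 bp for far intronic, near intronic, promoter and intergenic summits. The forward word peaks at 3.79 per kb 75 to 100 bp to the left and the reverse at 3.45 per kb 75 to 100 bp to the right, and all 4 classes have their GC minimum at the summit, 34.0% within 50 bp for far intronic ones.

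Motifs of known factors, searched on both strands, gave smaller contrasts. Of 36, 10 were more frequent in the 200 bp around summits than 1000 bp away. The tract AAAAAAAA was in 22.5% against 16.4%, a difference of 6.18 percentage points that was 1.03 (-1.33 to 3.38) with windows of 100 bp. The GAGA factor motif GAGAG was in 24.3% (21.6 to 27.2) against 19.9%, but this difference of 4.46 percentage points did not hold its direction: it was -0.103 with windows of 100 bp and -0.698 with flanks 2000 bp away. The tailless half-site AAGTCA was in 9.58% against 11.4%, a difference of -1.82 points with an interval of -4.20 to 0.557 that was 0.109 with windows of 100 bp, so it gave no direction. For the nuclear receptor half-site AGGTCA it was 3.68% against 5.12%, an interval of -3.00 to 0.140 for the difference. GCCAT, the core of the Pho motif, was in 23.9% against 37.9%, and CACGTG in 0.526% against 2.17%. At near intronic, promoter and intergenic summits GCCAT was in 23.3%, 23.2% and 28.0%, close to the far intronic share or somewhat above it. For CACGTG the shares there were 1.73%, 2.62% and 1.85%, all above the far intronic one. Both words are richer in G and C than the summit windows. The part of base composition in these differences was not tested, and a match or its absence says nothing of the factor itself.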

How the data were processed

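ChIP-seq peak lists of Gug-eGFP from 2 biological replicates on dm6 were used as the authors deposited them. Each holds a signal per peak, a score that was at least 830 in the thresholded lists, and, in the ranked lists, a −log10 of the irreproducible discovery rate (IDR), per the file headers and column layout; the largest rate in the main list was 0.009993. The aligner, peak caller, IDR settings and read depth are not given in the sources used here. The deposited lists held 5753 thresholded peaks for both replicates, 3827 for replicate 1 and 4000 for replicate 2, and 65647, 50946 and 40805 ranked peaks. One member was kept per summit, placed against Ensembl BDGP6 release 115, which has the same arms as dm6. Densities were taken over all bases that meet the rule; intervals are exact 95% Poisson or Clopper-Pearson and cover counting error only, with neighbouring peaks not independent. Summits within 100 bp were matched between lists. Python 3.11.15, numpy 2.4.6, pandas 2.3.3 and scipy 1.17.1 were used, and the counting steps were tested on simulated data. No p-value was computed. Genes are named by this rule: hosts of the 10 highest signals, the 10 coding genes with the most members, Gug, and up to 3 genes per list by highest signal; other names were chosen after their values were seen. Members and lists were chosen with earlier results of these data known. Of 465 list names, 8 were matched by an older symbol and 8 were unmatched. Alternatives are given in the closing section.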

Additional observations from a re-analysis of the deposited data

How the results depend on the processing

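Of 98 values under other settings, 64 stayed near the reported one and the others did not. Near meant within 1.5 times a reported count, or within the 95% interval of another reported value. For the median signal and the median GC content it meant within the quartiles of the far intronic summits, a wider band. The GAGA contrast of 4.46 percentage points, whose interval lay above 0, turned to -0.103 with 100 bp windows and -0.698 with flanks 2000 bp away. With 100 bp windows the tailless contrast of -1.82, whose interval spanned 0, was 0.109, and the poly-A contrast of 6.18 was 1.03. With one replicate's list alone the number of far intronic summits was 590 to 663, their share 15.4 to 16.6%, the density ratio to the arms 0.729 to 0.784, coding genes with 3 or more 64 to 82, the share with a neighbour within 3000 bp 33.9 to 40.6%, and the share with CACTG at 50 to 100 bp 43.9 to 44.6%. At an IDR of 0.001 there were 615 summits, 70 genes with 3 or more and 39.8% with a neighbour; fewer peaks enter by construction. A limit of 2000 bp gave 1665 summits, 29.0%, a ratio of 0.936, 663 genes and 219 with 3 or more, and a limit of 10000 bp gave 435, 7.57%, 0.588, 191 and 52. 2 alternatives were added after the data were seen. The ratio was 0.964 with far intronic sequence up to 30000 bp only, the density of the arms being unchanged. The share with a neighbour was 43.4% with summits within 250 bp of a stronger one left out. The share in both replicates was 43.3% at 50 bp and 89.7% in the ranked lists, and the median GC content 40.25% in 400 bp windows. The cause of the moves under one replicate was not tested. No paired analysis was possible because there was a single group and no test. Without read depth, a site missing from a list is only not called at this depth.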
